A study of Mus musculus with 6 samples.

Results

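Iron enters most cells bound to transferrin through the transferrin receptor, is stored inside the ferritin shell, is passed to mitochondria for haem and iron-sulphur clusters, and leaves through ferroportin. Haem oxygenases open the haem ring and set its iron free. A pair of iron regulatory proteins bind stem-loops called iron-responsive elements when iron is scarce: at the start of a message they block its translation, and behind the coding part they protect it from decay. Ferritin levels and iron export therefore also depend on steps that messenger RNA levels do not show.

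The 10 genes of iron uptake, storage, export and haem breakdown described here were taken by exact symbol from a table of 38926 gene symbols: Tfrc, Slc11a2, Slc25a37, Fth1, Ftl1, Slc40a1, Hmox1, Hmox2, Aco1 and Ireb2. All 10 were found, and all 10 averaged 1 FPKM or more (read counts divided by gene length and by the authors' library divisor), as had 11371 genes of the table. The values come from RNA sequencing of LSK cells, marrow cells of the femur and tibia sorted by FACS as Lin- Sca1+ cKit+, a gate that holds blood stem cells and multipotent progenitors. The mice were untreated C57BL/6 animals of 8 to 12 weeks. Wild type mice gave 3 libraries (WT) and Drd2 Drd3 double knockout mice, which by their label lack these D2-like dopamine receptors, gave another 3 (KO). The sources used here give neither how the alleles were made nor whether each library came from a separate animal, so the p-values reflect only how these libraries vary, which may be technical.

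The targeted genes were read first. Drd2 was listed at 0 FPKM in all 6 libraries, and Drd3 at 0 in the 3 labelled WT. In KO replicates 1, 2 and 3, as labelled, Drd3 read 1.62, 3.08 and 3.04 FPKM. Drd3 went against the label, and every direction below is that between libraries as labelled. The Y-linked gene Ddx3y was at 12.5 to 15.1 FPKM in the libraries labelled WT and in KO replicate 2, and at 0 in KO replicates 1 and 3. Xist, which female cells are known to express, read 1.96 and 2.01 FPKM in KO replicates 1 and 3 and 0 elsewhere. By these genes KO replicates 1 and 3 read as female, and KO replicate 2 and every WT library as male. Sex and label are therefore partly confounded in every comparison below. Igkc, the kappa light chain constant region, reached 3182 and 1173 FPKM in KO replicates 1 and 3 and was at most 4.93 FPKM elsewhere. Recovered reads ran from 5243247 to 7143103 per library. All 10 genes listed for the LSK gate or for cells within it passed the filter on low values. Kit and Ly6a, which encode cKit and Sca1, were not called (limma adjusted p = 0.387 and 0.636). In the libraries labelled KO 2 of the 10 rose, Slamf1 and Procr, and 2 fell, Cd34 and Flt3. Over all tested genes 5.48% were called higher and 5.43% lower in KO, which is the background to every list count below.

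Of the 10 genes, 4 hold an iron-responsive element motif in an untranslated region, and these sites are shown because the iron regulatory proteins are known to act through such stem-loops. The motif searched, on the sense strand of coding transcripts, was a C, 5 bases, the loop CAGTGN and 5 further bases that pair with the first 5, G-U pairs allowed. Sites are from GENCODE M21 transcripts on build GRCm38, 30 bases each, and capitals mark the unpaired C and the loop.
Fth1, 5′ untranslated region, chr19:9982732-9982761, plus strand: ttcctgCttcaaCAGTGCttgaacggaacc
Ftl1, 5′ untranslated region, chr7:45459778-45459807, minus strand: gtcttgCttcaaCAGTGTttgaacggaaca
Slc40a1, 5′ untranslated region, chr1:45925464-45925493, minus strand: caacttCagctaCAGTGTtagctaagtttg
Tfrc, 3′ untranslated region, chr16:32631219-32631248, plus strand: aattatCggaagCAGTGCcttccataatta
Tfrc, 3′ untranslated region, chr16:32631598-32631627, plus strand: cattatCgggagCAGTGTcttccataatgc
Tfrc, 3′ untranslated region, chr16:32631663-32631692, plus strand: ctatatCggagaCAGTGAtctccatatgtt
Tfrc, 3′ untranslated region, chr16:32631710-32631739, plus strand: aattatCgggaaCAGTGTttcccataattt
Of 21901 coding genes searched, 31 (0.142%) held the motif in a 5′ and 129 (0.589%) in a 3′ untranslated region. A match is a description of the letters, and the other 6 genes are without one in these windows under this rule. The rule asks for 5 unbroken pairs and 1 loop, so it misses elements of another shape. The lack of a match in the other 6 genes, Slc11a2 among them, therefore does not mean that they lack an element.

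Slc40a1 was the one member of the 10 that passed the test. Its protein, ferroportin, is the known iron exporter of vertebrate cells. Its mean rose from 1.22 ± 0.554 FPKM in WT to 5.35 ± 0.928 FPKM in KO (SD, with n = 3 in each group here and below), a ratio of means of 4.4. Across the whole set of tested genes 10.9% were called, 5.48% as higher and 5.43% as lower in KO, so 1 call among 10 genes is close to that background.

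In WT replicates 1, 2 and 3, Slc40a1 stood at 0.995, 0.808 and 1.85 FPKM, from 21, 16 and 39 reads. In KO replicates 1, 2 and 3 it stood at 5.08, 6.38 and 4.58 FPKM, from 124, 149 and 84 reads. The lowest KO library was above the highest WT library. The counting interval of that KO library (3.65 to 5.67 FPKM, 95% exact Poisson) also lay above that of that WT library (1.31 to 2.52 FPKM). Intervals of this kind cover counting error only. The difference on the log2(FPKM + 1) scale, which understates changes of low genes, was 1.54 ± 0.22 (SE, 95% interval 1.03 to 2.04, limma adjusted p = 0.00428), and ranked 96 from the top among 11371 genes. The call held in all 14 alternatives that tested the gene (differences of 1.4 to 2.22, adjusted p = 0.00142 to 0.0476). It held without the 2 KO libraries that lack Ddx3y, where the difference of 1.76 rests on KO replicate 2. Slc40a1 lies at chr1:45908068-45926523 on the minus strand (GRCm38), and its FPKM rest on a length of 3380 bases.

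**Figure D1:**
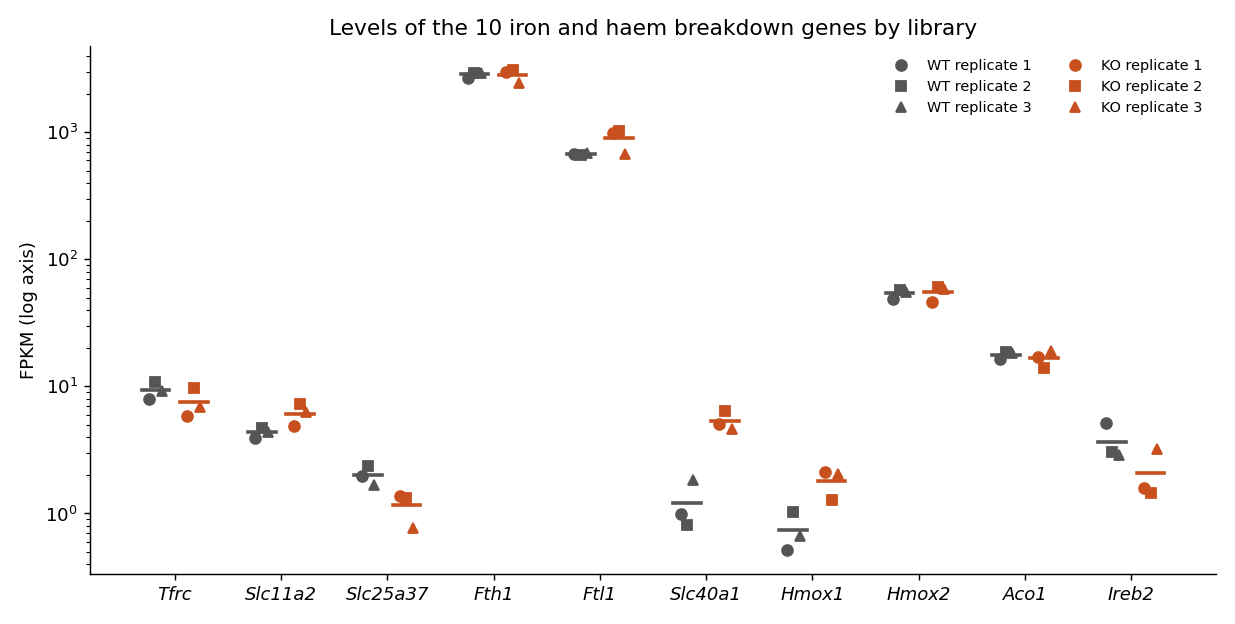
FPKM of the 10 genes in each library, on a log axis. Grey marks are WT and orange marks KO libraries, the shape gives the replicate and bars are group means; Slc40a1 is at most 1.85 in WT and at least 4.58 in KO, while Fth1 is at least 2444 in all 6.

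Markers of red cell precursors moved in the same direction as Slc40a1, which erythroid cells and macrophages are known to use. Of 18 tested erythroid genes, 13 rose and none fell (limma; 0 lower also at an unadjusted p under 0.05 and with voom), and the summed level of the 22 in the table was 1693 to 2166 FPKM in the libraries labelled WT and 2839 to 4870 FPKM in those labelled KO. None of the 22 was at 0 in every library. Car1, Car2 and the globin genes made up most of the sum. The globin genes Hba-a1, Hba-a2, Hbb-bs and Hbb-bt, and Alas2, were not called (limma adjusted p = 0.0572 to 0.194), and Hbb-bs and Hbb-bt overlapped between groups. Both Slc40a1 and the erythroid sum were highest in KO replicate 2 and lowest, among KO, in KO replicate 3. Of 8 tested macrophage genes none rose by limma (1 at an unadjusted p under 0.05, 1 with voom) and 1, Cd68, fell. The summed level over 18 genes overlapped between groups, at 395 to 466 FPKM in WT and 429 to 518 FPKM in KO. Most of this sum was Lyz2, at 355 to 417 FPKM in WT and 395 to 464 FPKM in KO. The scavenger receptor gene Marco was at 0 in all 6 libraries. Emr1, which encodes the macrophage surface protein F4/80, was at most 0.210 FPKM in WT. In KO replicates 1, 2 and 3 Emr1 was at 1.15, 0.0892 and 0.398 FPKM. Axl was at 2.88 ± 0.882 FPKM in WT and 5.26 ± 1.27 FPKM in KO, and C1qb at 1.19 ± 0.764 and 4.13 ± 3.85 FPKM. Cd163 was at 6.22 ± 0.546 FPKM in WT and 4.33 ± 1.21 FPKM in KO. Axl, C1qb and Cd163 were not called. The part of either cell type in the Slc40a1 result was not tested, and in sorted bulk RNA more cells of a type and more RNA per cell cannot be told apart.

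The 2 tested genes averaging 5 FPKM or more whose profile over the 6 libraries was nearest to that of Slc40a1 were Klhdc8b and Tspan33. Likeness was the root mean square difference between centred log2(FPKM + 1) values, 0.15 for Klhdc8b and 0.19 for Tspan33, among 7267 genes compared, which leave out pseudogenes and predicted genes without a given name. Klhdc8b, the nearer of them and not among the erythroid genes counted above, was at 4.14, 3.42 and 5.40 FPKM in WT and at 11.6, 12.8 and 10.8 FPKM in KO. Tspan33, a tetraspanin of red cell precursors and one of the erythroid genes counted above, was at 4.01, 2.99 and 3.82 FPKM in WT and at 11.3, 13.6 and 8.83 FPKM in KO. The 2 genes with the nearest profiles were thus higher in every KO library than in any WT library, as the closeness to Slc40a1 entails.

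Hmox1, the inducible haem oxygenase, was low in every library and did not pass the test. It was at 0.519, 1.03 and 0.667 FPKM in WT, from 7, 13 and 9 reads, and at 2.12, 1.27 and 2.05 FPKM in KO, from 33, 19 and 24 reads. The groups did not overlap, but the gap between KO replicate 2 and WT replicate 2 was small, and their counting intervals (0.766 to 1.99 and 0.546 to 1.75 FPKM) overlapped. The difference was 0.69 ± 0.23 (SE, 95% interval 0.17 to 1.22, limma adjusted p = 0.0923). No alternative brought it past the threshold (adjusted p = 0.0663 to 0.493 over 14). It was smallest, at 0.40, where KO replicate 2 alone stands for the KO group.

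Macrophages are known to break down haem, and the summed level of the 18 macrophage genes in the table was 518, 429 and 437 FPKM in KO replicates 1, 2 and 3, against 395 to 466 FPKM in WT. Of these, KO replicate 1 alone was above all WT libraries. Lyz2 made up most of each sum, at 464, 395 and 404 FPKM in KO and 355 to 417 FPKM in WT, so the sum says little of the other genes. C1qb was at 8.41, 0.931 and 3.05 FPKM in KO and at most 2.06 FPKM in WT. Cd163 was at 5.58, 4.25 and 3.16 FPKM in KO and at least 5.67 FPKM in WT, and neither gene was called. The part of macrophage transcripts in the Hmox1 values was not tested.

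**Figure D2:**
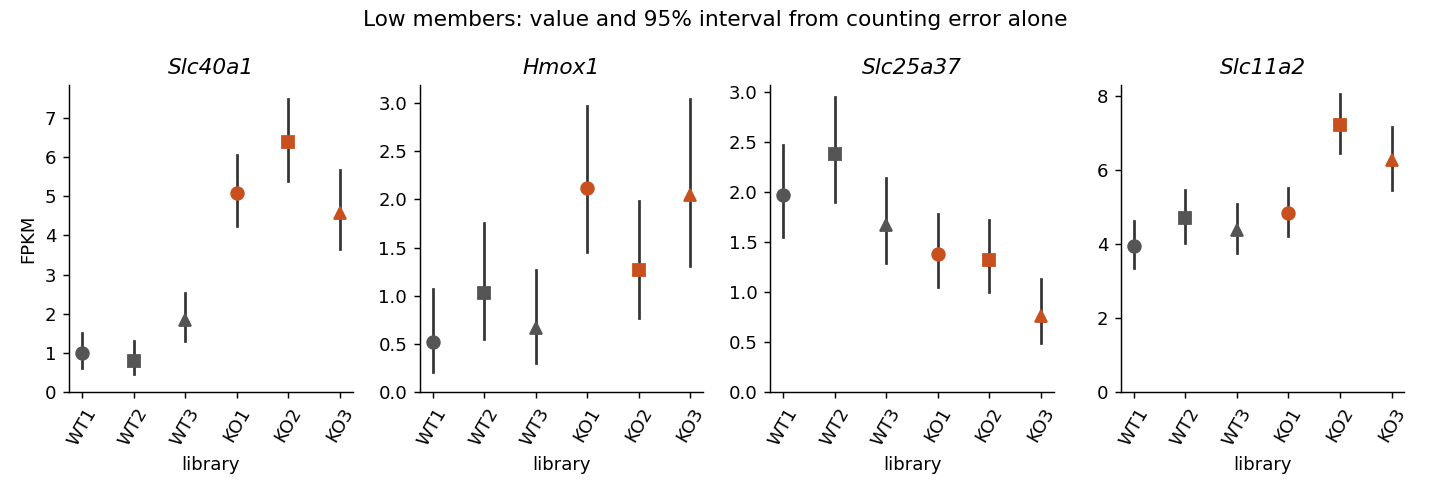
FPKM of Slc40a1, Hmox1, Slc25a37 and Slc11a2 in each library, with 95% exact Poisson intervals from the recovered reads as vertical lines (counting error only). In each panel the points of WT and KO do not overlap, but the intervals of the nearest libraries separate only for Slc40a1.

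Hmox2, the constitutive haem oxygenase, was far more abundant per length than Hmox1 and did not pass the test. It was at 48.6, 57.9 and 55.7 FPKM in WT and at 45.9, 60.6 and 58.2 FPKM in KO, so the groups overlapped over nearly their whole range. The difference was 0.02 ± 0.13 (SE, 95% interval -0.27 to 0.30, limma adjusted p = 0.954), and it kept its sign in 11 of 15 alternatives, turning with upper quartile scaling (-0.02) among others. Hmox2 shares 892 exon bases with Cdip1 on the opposite strand, which was at up to 13.9 FPKM, and the library kit does not mark strand. Hmox1 stood to Hmox2 as 0.0107, 0.0177 and 0.0120 in the WT and as 0.0461, 0.0210 and 0.0352 in the KO libraries. The log2 ratio was higher by 1.3 in KO (exact permutation test, two-sided p = 0.1, the smallest that 3 against 3 allow, and 0.2 adjusted over 4 ratios).

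The ferritin genes were the most abundant of the 10 by a wide margin. Fth1, the heavy chain with the iron-oxidising site, had the third highest mean FPKM of the 11371 genes, and Ftl1, the light chain that aids iron core formation, ranked 33. The Fth1 values rest on a length of 866 bases, against 3469 exon bases in GENCODE M21, and those of Ftl1 on 1340 bases. Both ranks depend on these lengths. Fth1 was at 2693, 2941 and 2945 FPKM in WT and at 3002, 3097 and 2444 FPKM in KO. The KO group held both the highest and the lowest value. The difference of -0.01 ± 0.12 (SE, 95% interval -0.29 to 0.26, limma adjusted p = 0.962) kept its sign in 9 of 15 alternatives and ran from -0.08 to 0.12 over them.

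Ftl1 was at 677, 666 and 681 FPKM in WT and at 984, 1026 and 673 FPKM in KO. KO replicates 1 and 2 were well above WT, while KO replicate 3 was inside the WT range. The spread was therefore 7.72 FPKM (SD) in WT and 193 FPKM in KO. Ftl1 differed by 0.38 ± 0.15 (SE, 95% interval 0.04 to 0.72, limma adjusted p = 0.141) and did not pass. It was called without KO replicate 3 (0.57, adjusted p = 0.00551), with voom on recovered reads (0.42, adjusted p = 0.0487), and without the 2 KO libraries that lack Ddx3y (0.60, adjusted p = 0.0371), in a range of 0.00551 to 0.337 over 15 alternatives. This split did not follow Ddx3y or Igkc, which separate KO replicate 2 from the other 2.

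Heavy chain exceeded light chain in FPKM in every library, but by less in KO. The size of this ratio depends on the lengths given above, while its difference between libraries does not. Fth1 stood to Ftl1 as 3.98, 4.41 and 4.32 in the WT and as 3.05, 3.02 and 3.63 in the KO libraries. The groups did not overlap, and the log2 ratio was lower in KO by an amount of -0.39 (exact permutation test, two-sided p = 0.1, the smallest possible, 0.2 adjusted over 4 ratios). Together both chains took 0.326 to 0.349% of the recovered reads in WT and 0.396, 0.411 and 0.312% in KO replicates 1, 2 and 3. Ferritin genes have processed copies that can share reads with them: of the 3 others listed by symbol, Fth-ps2 and Ftl2 were at most 1.12 FPKM and Fthl17 was at 0. How reads with several matches were counted is not stated in the sources used here.

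**Figure D3:**
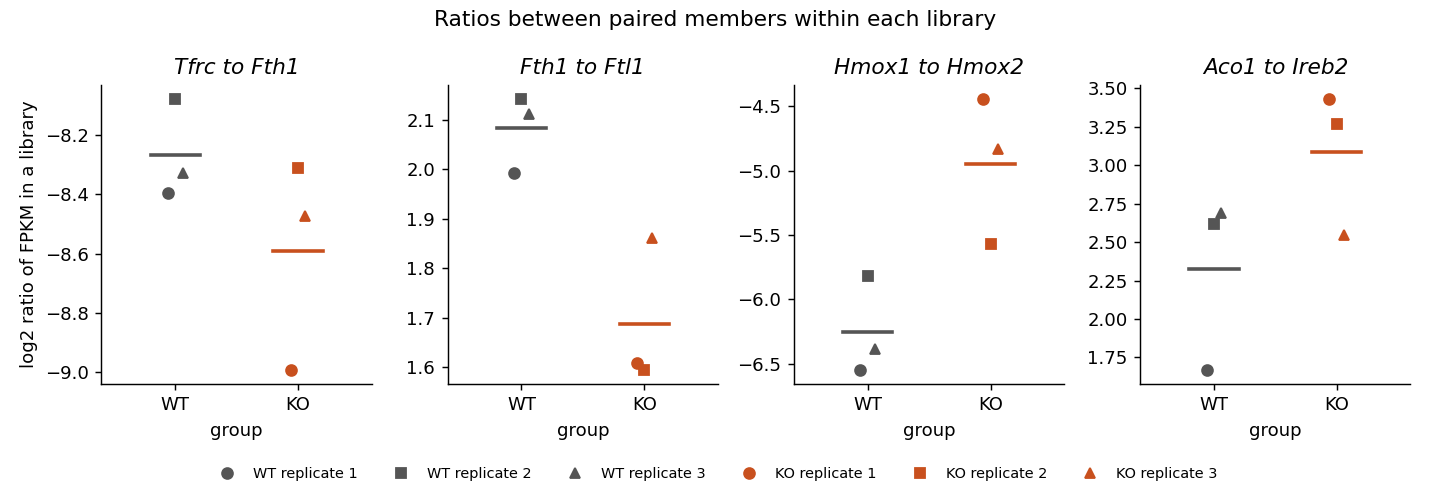
Log2 ratios between FPKM values of paired genes within each library, with bars for group means and the shape for the replicate. Fth1 to Ftl1 is lower and Hmox1 to Hmox2 higher in all 3 KO libraries, whereas the other 2 ratios overlap between the groups.

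Among the uptake genes, Tfrc, the transferrin receptor that cycling and erythroid cells are known to carry in number, did not pass the test. It was at 8.00, 10.9 and 9.16 FPKM in WT and at 5.89, 9.76 and 6.88 FPKM in KO. KO replicates 1 and 3 were below all WT libraries and KO replicate 2 was inside the WT range. The difference was -0.30 ± 0.19 (SE, 95% interval -0.73 to 0.13, limma adjusted p = 0.346), and with KO replicate 2 standing alone for KO it was 0.06. Of 10 cycling-cell genes, 5 fell and none rose (limma; 0 higher also at an unadjusted p under 0.05 and with voom), and their summed level was 669 to 753 FPKM in WT, 620 FPKM in KO replicate 2 and 489 and 487 FPKM in KO replicates 1 and 3, the KO libraries that were also below WT in Tfrc. The part of cycling in the Tfrc values was not tested. The ratio of Tfrc to Fth1, uptake over storage, did not separate the groups (log2 difference -0.33, exact permutation test, two-sided p = 0.3).

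Slc11a2, which encodes the transporter DMT1 that carries iron out of endosomes, was at 3.96, 4.70 and 4.38 FPKM in WT and at 4.84, 7.22 and 6.26 FPKM in KO. KO replicate 1 was barely above WT replicate 2. The difference of 0.40 ± 0.17 (SE, 95% interval 0.01 to 0.79, limma adjusted p = 0.170) did not pass here or in any of 15 alternatives. The groups did not overlap in 4 of the 10 genes, namely Slc40a1, Hmox1, Slc11a2 and Slc25a37, 3 of them higher and 1 lower in KO. Over all tested genes this held for 32.8%, 16.2% higher and 16.6% lower.

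Slc25a37, mitoferrin-1, the mitochondrial iron importer of developing red cells, was the member of these 4 with lower values in KO. It was at 1.97, 2.38 and 1.67 FPKM in WT, from 74, 84 and 63 reads, and at 1.38, 1.32 and 0.765 FPKM in KO, from 60, 55 and 25 reads. The difference of -0.49 ± 0.22 (SE, 95% interval -0.98 to 0.00, limma adjusted p = 0.184) was on the side opposite to the erythroid genes that rose, and no alternative called it. Klf1, an erythroid transcription factor gene, was at 19.6 ± 4.07 FPKM in WT and at 87.6 ± 41.4 FPKM in KO.

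The iron regulatory proteins themselves did not pass the test. Aco1, which is a cytosolic aconitase when it carries an iron-sulphur cluster and binds iron-responsive elements without it, was at 16.4, 18.6 and 18.5 FPKM in WT and at 17.02, 13.9 and 18.9 FPKM in KO. Its difference was -0.10 ± 0.14 (SE, 95% interval -0.41 to 0.20, limma adjusted p = 0.676). Ireb2, the regulatory protein that is degraded when iron is ample, was at 5.16, 3.03 and 2.87 FPKM in WT and at 1.57, 1.44 and 3.24 FPKM in KO. WT replicate 1 was high and KO replicate 3 was inside the WT range. The difference was -0.62 ± 0.27 (SE, 95% interval -1.23 to -0.00, limma adjusted p = 0.180; 0.0548 to 0.455 over 14 alternatives). The ratio of Aco1 to Ireb2 overlapped between groups (log2 difference 0.76, exact permutation test, two-sided p = 0.3).

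Ordered by mean FPKM over all libraries, which is a level per length, the genes ran Fth1 (2854), Ftl1 (785), Hmox2 (54.5), Aco1 (17.2), Tfrc (8.43), Slc11a2 (5.23), Slc40a1 (3.28), Ireb2 (2.88), Slc25a37 (1.58) and Hmox1 (1.27). The first 4 kept their places in every library. In the libraries labelled WT, Slc40a1 was below Ireb2, Slc11a2 and Tfrc throughout. In those labelled KO it was above Ireb2 throughout, and its range there overlapped that of Slc11a2.

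**Figure D4:**
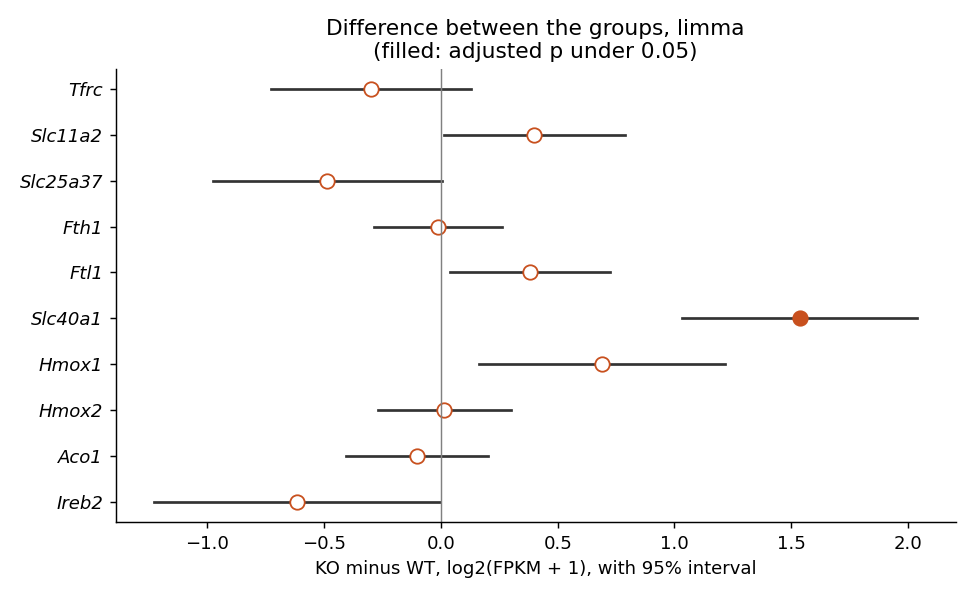
Difference between the KO and WT means on the log2(FPKM + 1) scale for each of the 10 genes, with 95% intervals from limma as horizontal lines. Slc40a1, the filled circle at 1.54, is past an adjusted p under 0.05; the other 9, open circles, are not.

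Genes that work beside the 10 gave 11 higher and 2 lower calls among 86 tested. Of the 118 genes considered besides the members, 111 were in the table, and 15.1% of the 86 were called, where 10.9% of all genes were, with a median difference of 0.09 against -0.00 over all genes. Without WT replicates 1, 2 and 3 in turn, 3, 4 and 3 rose and 1 fell each time. Without KO replicate 1, 5 rose and 3 fell, without KO replicate 2, 6 rose and 1 fell, and without KO replicate 3, 10 rose and 4 fell. Without both KO libraries that lack Ddx3y, 4 rose and 2 fell. The lists were chosen with earlier results of these data known, and they share genes with the erythroid markers. The counts of the single lists that follow stand beside 5.48% called higher and 5.43% called lower over all tested genes.

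In uptake and iron handling, 1 of 15 rose and none fell by limma (2 lower at an unadjusted p under 0.05, 1 with voom). Tfr2, the second transferrin receptor, which senses iron-loaded transferrin and is also among the erythroid genes counted above, went from 49.0, 53.6 and 46.2 FPKM in WT to 81.8, 83.0 and 79.4 FPKM in KO. These groups were well separated (difference 0.71 ± 0.09 SE, limma adjusted p = 0.00287), and the call held in all 15 alternatives. Tfr2 was thus higher while Tfrc did not pass.

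In ferritin turnover, export and iron sensing, 1 of 7 tested genes fell and none rose (limma; 0 higher also at an unadjusted p under 0.05 and with voom). Ncoa4, the receptor that takes ferritin to lysosomes for breakdown, fell from 42.9 ± 0.529 to 31.5 ± 1.89 FPKM (difference -0.44 ± 0.10 SE, limma adjusted p = 0.0212). The Ncoa4 call was lost without each of WT replicates 1, 2 and 3 and without KO replicate 2 (adjusted p = 0.0158 to 0.0963 over 15 alternatives).

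Mitochondrial iron and iron-sulphur cluster genes had 5 of 26 higher and none lower (limma; 0 lower also at an unadjusted p under 0.05 and with voom), with a median difference of 0.16. Hscb, a co-chaperone that hands over new clusters, rose from 51.5 ± 2.55 to 84.9 ± 14.2 FPKM, and Isca1, a late-acting assembly factor, from 39.9 ± 5.04 to 63.3 ± 8.14 FPKM. Glrx5, the glutaredoxin that carries clusters, rose from 159 ± 2.90 to 230 ± 44.1 FPKM, and Fdx1 and Isca2, a ferredoxin and an assembly factor, were called as well. Leaving out single libraries ended the call of Isca1 in 2 of 6 cases (WT replicates 1 and 3) and of Glrx5, Fdx1 and Isca2 in 5 of 6 each (all but KO replicate 3). Over all alternatives the call held in 11 of 15 for Isca1, 8 of 15 for Glrx5, 6 of 15 for Isca2 and 5 of 15 for Fdx1. For Isca1 the adjusted p was 0.129 with a Y-linked covariate and 0.0964 when KO replicate 2 stood alone for KO, within 0.00326 to 0.129 for all 15. Of the 15 alternatives for Hscb, 1 ended its call, which was adding a covariate for Y-linked transcripts (adjusted p = 0.0889, within 0.00497 to 0.0889 for all 15).

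In haem transport and breakdown, 3 of 9 rose and 1 fell. Blvrb, a biliverdin reductase of red cells, rose from 19.4, 23.9 and 29.0 FPKM in WT to 60.9, 94.8 and 51.5 FPKM in KO. Its difference was 1.45 ± 0.22 (SE, limma adjusted p = 0.00479), and the Blvrb call held in all 15 alternatives. Blvra, the other biliverdin reductase, did not pass, with 21.5 ± 1.47 FPKM in WT and 24.0 ± 3.25 FPKM in KO (adjusted p = 0.509).

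Slc48a1, a haem transporter of the endolysosome, rose from 85.1 ± 2.34 to 110 ± 7.91 FPKM and the efflux pump gene Abcg2 from 19.3 ± 1.93 to 25.8 ± 0.465 FPKM. The Abcg2 call was lost without any one of the 6 libraries, and the Slc48a1 call without each but KO replicate 3. The haemoglobin-binding plasma protein haptoglobin, Hp, fell from 23.1 ± 10.98 to 5.20 ± 2.23 FPKM. Of 11 tested neutrophil genes limma called none, and at an unadjusted p under 0.05 0 were higher and 4 lower. The part of any cell type in the Hp values was not tested. A term for Y-linked transcripts ended the Hp call (adjusted p = 0.0946, within 0.00369 to 0.0946 for 15 alternatives), as did leaving out the 2 KO libraries that lack them.

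**Figure D5:**
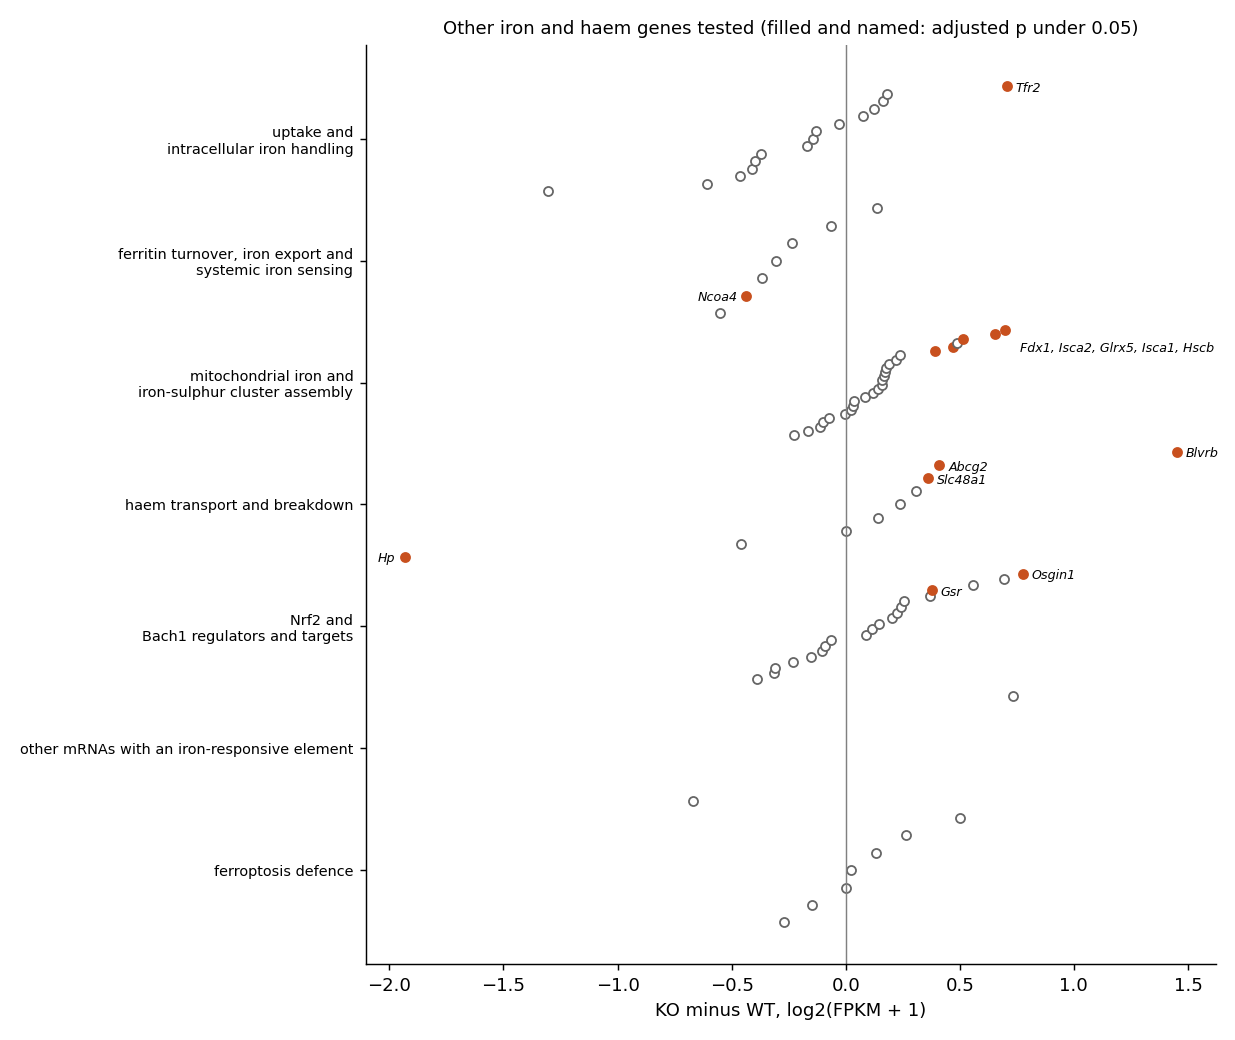
Difference between KO and WT on the log2(FPKM + 1) scale for each tested gene of the 7 lists of related genes. Filled, named points passed an adjusted p under 0.05: 11 lie to the right of 0 and 2, namely Ncoa4 and Hp, to the left.

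Nrf2 and Bach1, the activator and the haem-sensing repressor that are known to control Hmox1, Slc40a1 and ferritin genes, frame the last large list. Of 20 tested regulators and targets, 2 rose and none fell by limma, with a median difference of 0.13. At an unadjusted p under 0.05 in limma 7 were higher and 1 lower, and voom called 3 higher and 0 lower. Osgin1 rose from 8.71 ± 1.85 to 15.8 ± 3.92 FPKM and the glutathione reductase gene Gsr from 48.3 ± 2.50 to 63.1 ± 4.89 FPKM. Both kept their call without KO replicate 2 and lost it without each of the other 5 libraries (over 15 alternatives, adjusted p = 0.0177 to 0.401 for Osgin1 and 0.0286 to 0.267 for Gsr). The repressor gene Bach1 was at 4.36 ± 0.638 and 3.31 ± 0.355 FPKM (adjusted p = 0.272) and the activator gene Nfe2l2 at 58.3 ± 4.24 and 64.8 ± 9.18 FPKM (adjusted p = 0.473). None of the 7 tested genes of ferroptosis defence was called by limma or voom, and 2 were higher at an unadjusted p under 0.05.

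Of the other genes with an iron-responsive element motif in a 5′ untranslated region, 20 were tested, and 1 rose and 2 fell, 15% against 10.9% of all genes. With the motif in a 3′ untranslated region, 78 were tested, and 5 rose and 3 fell, 10.3%. The median differences of these sets were -0.02 and 0.00. Of the fixed list of known messages with the element, 2 were tested and limma called neither (1 higher and 1 lower at an unadjusted p under 0.05, 0 higher and 1 lower with voom). Alas2, the erythroid enzyme that starts haem synthesis, was at 11.7, 8.16 and 7.33 FPKM in WT and 12.9, 23.5 and 12.0 FPKM in KO (limma adjusted p = 0.0960). Cdc14a was at 4.25, 1.99 and 3.09 FPKM in WT and 1.63, 1.31 and 1.63 FPKM in KO (limma adjusted p = 0.102). Of the 4 members shown above with the motif, Slc40a1 was called and Fth1, Ftl1 and Tfrc were not.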

How the data were processed

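The authors deposited 1 table of FPKM values for 6 libraries. Build mm10, DESeq2 1.18.1, HTSeq 0.6.1, TopHat2 2.1.1 and bcl2fastq 2.19.1.403 are listed in the submitters' processing notes, with no roles and no annotation. SMART-Seq v4 cDNA and Nextera XT libraries were made, per the labels' protocols.

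Ratios of FPKM between libraries were whole-number ratios for all 17183 genes above 0 in at least 2 libraries (relative tolerance 1e-09), so reads could be recovered, as lower bounds where a common factor is missing. For 836 genes lengths were not resolved. One read in 2000 bases was worth 0.0693 to 0.0921 FPKM.

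Groups were compared in limma 3.58.1 (R 4.3.3) on log2(FPKM + 1) with a mean-variance trend, for 11371 genes averaging 1 FPKM or more, with Benjamini-Hochberg adjustment and a threshold of 0.05. Ratios were tested by exact permutation. Python 3.11.15 was used for the rest.

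Alternatives were a pseudocount of 0.1, no filter or one of 5 FPKM, TPM and upper quartile scaling, voom on recovered reads, a replicate block, each library left out, and a term or exclusion for Y-linked transcripts. Named genes were the 10 members, up to 4 called genes per list by smallest p, and the nearest profiles of called members. Members, lists and tests were chosen with earlier results of these data known. Some genes of these lists are not reported here and are left out of the list counts.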

Additional observations from a re-analysis of the deposited data

How the results depend on the processing

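Leaving out single libraries moved the count of called genes across the table from 623 higher to 212 to 764 and from 617 lower to 158 to 834, and the calls in the iron and haem lists from 11 higher to 3 to 10 and from 2 lower to 1 to 4. Without a filter the table gave 335 higher and 253 lower and the lists 4 higher. With a term for Y-linked transcripts these were 214, 159, 4 and 0 lower in the lists, and without the KO libraries lacking these transcripts 265, 249 and 4 higher in the lists. Both rest on KO replicate 2, and a lone library is assumed to vary like the others. Upper quartile scaling and voom each gave 4 lower in the lists. Same-numbered libraries did not deviate together (r = -0.0311, 0.0450 and -0.116 for replicates 1, 2 and 3). With deviations taken from means of only 3 libraries, this cannot decide whether the numbers pair them. With the replicate block the table gave 369 lower and the lists 6 higher and 1 lower.

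Of the members, Slc40a1 alone was called in the main limma comparison on log2(FPKM + 1), and its difference was 1.4 to 1.73 with single libraries left out. Ftl1 became called with voom (0.42) and without the KO libraries lacking Y-linked transcripts (0.60), and ran from 0.27 to 0.57 with single libraries left out. Signs turned for 4 members, none of them called: Hmox2 with upper quartile scaling (-0.0185) and within -0.0598 to 0.14 with single libraries left out; Fth1 with voom (0.0167), with the Y-linked term or exclusion (0.116 in both) and within -0.0771 to 0.0937; Aco1 within -0.195 to 0.0132; and Tfrc with the Y-linked term or exclusion (0.0645 in both). The cause was not tested. A filter of 5 FPKM leaves out Slc40a1, Hmox1, Slc25a37 and Ireb2, so they have no value under it. Depth limits Hmox1 most, with 7 to 33 reads per library.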
